A study of Mus musculus with 60 samples.

Results

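The nuclear genome encodes most of the protein subunits of respiratory complexes II, III, IV and V, and 42 genes named for them were followed here in mouse prefrontal cortex. They were taken from a table of 18088 genes by their symbols alone: Sdha to Sdhd for complex II, Cyc1 and the Uqcr genes for complex III, 11 Cox genes for complex IV, and the Atp5 genes with Usmg5 for complex V. This gave 4 genes of complex II, 9 of complex III, 11 of complex IV and 18 of complex V. Atp5s, known as coupling factor B, is counted in complex V by its symbol and is not an established subunit. All 42 passed the filter on low values, which kept 17807 genes of the table. The rule uses symbols and no measured values, but it was chosen with earlier results of these data known.

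Complex II oxidizes succinate and hands its electrons to ubiquinone, complex III passes them on to cytochrome c, and complex IV delivers them to oxygen. Complexes III and IV pump protons as they do so, and complex V, the ATP synthase, lets the protons flow back through a rotor to make ATP. Cortical neurons draw most of the ATP for ion pumping and synaptic transmission from this chain, whose subunits come from the nuclear and the mitochondrial genome, complex II being wholly nuclear.

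Messenger RNA was sequenced from 60 mice of the C57BL/6J strain on postnatal day 25, in 12 groups of 5 libraries. Mice carried 1 copy of the N2373K allele of Chd8, a chromatin remodeling gene linked to autism (Chd8+/N2373K, here Het), or were wild type (WT). Every Het mouse carries the allele, whatever its treatment. Males and females of each genotype received fluoxetine, which blocks serotonin reuptake, lithium, used in bipolar disorder, or vehicle. Exposure ran from postnatal day 3 to 24 by way of maternal milk, so intake was not set per pup. The sources used here give neither dose nor litter, and the p-values therefore cover only the spread between these mice, which may in part be spread between litters. The groups are Het fluoxetine, Het lithium, Het vehicle, WT fluoxetine, WT lithium and WT vehicle, each with 5 males and 5 females.

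Libraries held 24.05 to 31.65 M reads. Chd8 itself stood at 2671 ± 134 normalized reads in Het and 3094 ± 91.7 in WT mice (SD, n = 30 each), and its vehicle difference was −0.23 on the log2 scale (limma, adjusted p = 6.67e-06). All 12 neuron markers were detected in every group, with Slc17a7, the vesicular glutamate transporter of cortical excitatory neurons, at 34169 to 54206. Libraries differed in RNA of neighboring tissue. The summed level of 15 measured olfactory bulb markers ran from 5658 to 18358 in Het lithium, from 6827 to 48895 in Het vehicle, from 7422 to 35002 in WT lithium and from 8899 to 30220 in WT vehicle libraries. The 16 libraries with the highest scores of these markers included 3 of 5 Het vehicle males, 2 of 5 Het vehicle females, 3 of 5 Het fluoxetine females and 2 of 5 Het fluoxetine males, and 0 of 10 WT fluoxetine mice. Het vehicle male replicate 3 stood apart with high values of the 42 genes and was not among the 16. Results are given with and without these libraries.

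Promoter sequence was matched for 30 of the 42 genes, in RefSeq windows of 300 bases on GRCm38.p6 from 250 bases before to 50 after the gene start. Those of 6 genes described under lithium are printed, so that genes that rose together can be compared at their start sites. The windows lie at chr9:50603800-50604099 (minus strand) for Sdhd, chr9:108936398-108936697 (plus) for Uqcrc1, chr2:73911277-73911576 (minus) for Atp5g3, chr9:79759804-79760103 (minus) for Cox7a2, chrX:106015450-106015749 (plus) for Cox7b and chr11:96075582-96075881 (minus) for Atp5g1. Each is written 5′ to 3′ on the gene's strand, with matches to 5 searched motifs in capitals, on either strand.
Sdhd: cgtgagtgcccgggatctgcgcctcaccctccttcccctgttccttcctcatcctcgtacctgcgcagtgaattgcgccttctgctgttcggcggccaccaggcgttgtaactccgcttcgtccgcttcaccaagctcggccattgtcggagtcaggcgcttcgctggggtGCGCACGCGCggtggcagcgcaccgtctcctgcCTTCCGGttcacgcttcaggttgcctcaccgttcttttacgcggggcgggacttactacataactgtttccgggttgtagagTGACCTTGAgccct
Uqcrc1: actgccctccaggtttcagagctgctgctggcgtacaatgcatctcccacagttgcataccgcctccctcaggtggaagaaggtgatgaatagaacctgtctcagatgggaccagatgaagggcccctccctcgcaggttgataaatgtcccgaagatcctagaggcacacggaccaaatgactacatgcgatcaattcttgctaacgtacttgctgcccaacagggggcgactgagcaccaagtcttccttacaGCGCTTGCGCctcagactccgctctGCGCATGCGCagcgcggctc
Atp5g3: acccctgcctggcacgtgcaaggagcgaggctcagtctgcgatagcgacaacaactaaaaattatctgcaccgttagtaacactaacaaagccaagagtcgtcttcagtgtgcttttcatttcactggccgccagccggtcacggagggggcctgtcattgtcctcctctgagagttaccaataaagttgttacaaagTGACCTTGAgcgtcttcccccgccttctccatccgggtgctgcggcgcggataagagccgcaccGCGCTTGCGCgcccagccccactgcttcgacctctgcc
Cox7a2: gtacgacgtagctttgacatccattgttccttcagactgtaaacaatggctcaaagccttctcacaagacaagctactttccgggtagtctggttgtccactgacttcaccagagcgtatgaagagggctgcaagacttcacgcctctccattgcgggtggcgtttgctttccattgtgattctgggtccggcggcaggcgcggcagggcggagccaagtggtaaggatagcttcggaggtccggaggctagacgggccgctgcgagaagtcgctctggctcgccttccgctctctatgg
Cox7b: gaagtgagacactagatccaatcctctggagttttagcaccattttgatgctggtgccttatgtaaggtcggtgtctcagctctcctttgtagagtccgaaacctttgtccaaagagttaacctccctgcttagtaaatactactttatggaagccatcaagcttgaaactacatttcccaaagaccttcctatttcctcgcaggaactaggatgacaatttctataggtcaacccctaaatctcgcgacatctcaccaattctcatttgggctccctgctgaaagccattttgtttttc
Atp5g1: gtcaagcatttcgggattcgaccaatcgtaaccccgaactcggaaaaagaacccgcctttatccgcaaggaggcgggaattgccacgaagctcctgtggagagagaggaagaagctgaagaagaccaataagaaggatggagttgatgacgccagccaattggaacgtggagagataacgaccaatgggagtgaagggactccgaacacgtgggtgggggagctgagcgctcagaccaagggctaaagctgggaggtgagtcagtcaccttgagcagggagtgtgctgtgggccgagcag

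The Sdhd window held 1 match each to the motifs named for NRF1, ETS factors and ERRA. The Uqcrc1 window held 2 NRF1 matches, the Atp5g3 window 1 NRF1 and 1 ERRA match, and the Cox7a2, Cox7b and Atp5g1 windows none of the 5. The NRF1 motif, GCGCA, any base, then GCGC, was in 9 of the 30 windows (30%) against 4.78% of all 27025 promoters of the same length. CCGGAAG, bound by ETS factors such as GABP, was in 11 (36.7%) against 9.12%, and TCAAGGTCA, the element of the estrogen-related receptors, was in 2 (6.67%) against 0.407%. AAGATGGCG (YY1) was in 1 (3.33%) against 1.49%, and GGGGCGGGG (SP1) in 4 (13.3%) against 11.6%. No matches of different motifs overlapped, and 12 windows held none. These letters are a description of the windows and say nothing of binding. Genes that rose under lithium were found among windows with and without a match, as Cox7a2, Cox7b and Atp5g1 show. The genes without a window were Sdhc, Uqcrq, Uqcrb, Uqcrc2, Cyc1, Cox4i1, Cox6c, Atp5a1, Usmg5, Atp5f1, Atp5mpl and Atp5s.

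Transcripts of the 42 genes together made up 0.533% to 0.7% of the reads of a library, with a median of 0.601%. Levels per transcript length spanned a wide range, from 1696 to 3521 normalized reads per kb in complex II, 1827 to 7118 in complex III, 26.9 to 15171 in complex IV and 215 to 13509 in complex V. The highest were Cox8a, a small subunit of complex IV, at 15171 per kb, and Atp5b, the catalytic beta subunit of the ATP synthase, at 13509 per kb. Cox7a1, the isoform of heart and skeletal muscle, was close to absent at 26.9 per kb (3.03 to 23.4 normalized reads in the 60 libraries), while its ubiquitous counterpart Cox7a2 stood at 3565 per kb. Sdha, the flavoprotein of complex II, varied least within groups, with an SD of 0.04 on the log2 scale, and Cox7a1 most, with 0.56.

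**Figure D1:**
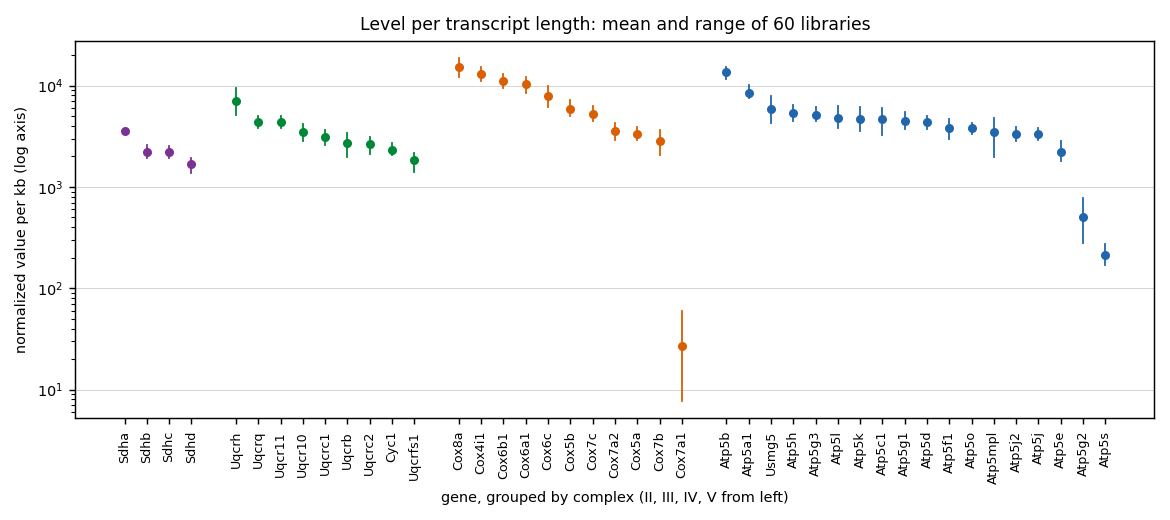
Normalized reads per kb of transcript (log axis) for each of the 42 genes, grouped by complex; dots are means and lines the range over 60 libraries. Cox8a and Atp5b are highest at 15171 and 13509 per kb, and Cox7a1 lies far below the rest at 26.9 per kb.

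Atp5g1, Atp5g2 and Atp5g3 encode the same mature subunit c of the rotor ring and differ in level. Atp5g3 stood at 5098 and Atp5g1 at 4421 per kb. Atp5g2 stood at 504 per kb, but its value is uncertain, since a separately listed transcript, Gm10175, matches 645 of its bases at 100% identity and averaged 1342 normalized reads beside 222 for Atp5g2. Their sum was steadier, from 1411 to 1786, of which 7.89% to 21.7% was assigned to Atp5g2. Atp5l, the g subunit, also has listed near-copies, Gm10221 and Gm4045, which averaged 31.6 and 4.18 normalized reads beside 2632 for Atp5l. Near-identical transcripts of genes without values here were found for further members, among them Cox7b (2 other genes) and Atp5g1 (1). For Sdhd, Cyc1, Cox7a2 and Atp5g3 the search found 0. The part of such copies in the values was not tested.

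In Het mice lithium raised subunit genes of every complex. Over both sexes 28 of the 42 genes rose relative to vehicle (66.7%), against 5.3% of all genes tested, and 0 fell, against 3.84% of all genes. The 28 were 2 of 4 genes of complex II, 6 of 9 of complex III, 7 of 11 of complex IV and 13 of 18 of complex V. Rises were small. The median of the 42 log2 differences was 0.17, against −0.0024 over all genes tested, and the values ran from −0.05 to 0.39. Calls are from limma on log2(value + 1) over all 60 libraries, at an adjusted p under 0.05 over 17807 genes. In bulk tissue a change in the number of cells of a type and a change in RNA per cell cannot be told apart.

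Sdhd, a membrane anchor of complex II (chromosome 9, 50596357 to 50603812 on GRCm38), had a lowest, median and highest value of 2121, 2235 and 2356 in Het lithium mice, against 1675, 1886 and 2180 in Het vehicle mice. The groups overlapped only through Het vehicle male replicate 3 at 2180. The log2 difference was 0.24 ± 0.04 (SE, limma, adjusted p = 2.51e-05), and 10 of 10 lithium libraries lay above the vehicle mean of their sex.

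Cyc1, the cytochrome of complex III that reduces cytochrome c, stood at 3566, 3898 and 4155 in Het lithium mice (lowest, median, highest), against 3131, 3382 and 3746 in Het vehicle mice. Its difference was 0.19 ± 0.03 (SE, adjusted p = 5.18e-05 by limma). Het vehicle male replicate 3 was again the highest vehicle library, at 3746.

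In complex IV, Cox7a2 ranged from 2407 through a median of 2636 to 2810 in Het lithium mice, against 1959, 2134 and 2702 in Het vehicle mice, a difference of 0.26 ± 0.05 (SE, limma, adjusted p = 0.000626). Cox7b, another small subunit, ranged from 2812 through 3127 to 3531 in Het lithium mice, against 2064, 2567 and 3655 in Het vehicle mice, a difference of 0.27 ± 0.05 (SE, limma, adjusted p = 0.00135). The groups overlapped in Cox7a2 through Het vehicle male replicate 3 alone. In Cox7b that library, at 3655, was the highest of both groups, and the other Het vehicle males lay between 2333 and 2749.

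Among the genes of the rotor ring, Atp5g3 stood at 3694, 3852 and 3951 in Het lithium mice, against 3177, 3385 and 3780 in Het vehicle mice, a difference of 0.18 ± 0.03 (SE, limma, adjusted p = 5.18e-05). Atp5g1 stood at 3106, 3193 and 3497 in Het lithium mice, against 2584, 2847 and 3194 in Het vehicle mice, a difference of 0.18 ± 0.03 (SE, limma, adjusted p = 0.000155). In both genes 10 of 10 lithium libraries exceeded the vehicle mean of their sex, and only Het vehicle male replicate 3 reached into the lithium range. Atp5g2 differed by 0.11 and was not called (limma, adjusted p = 0.667).

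**Figure D2:**
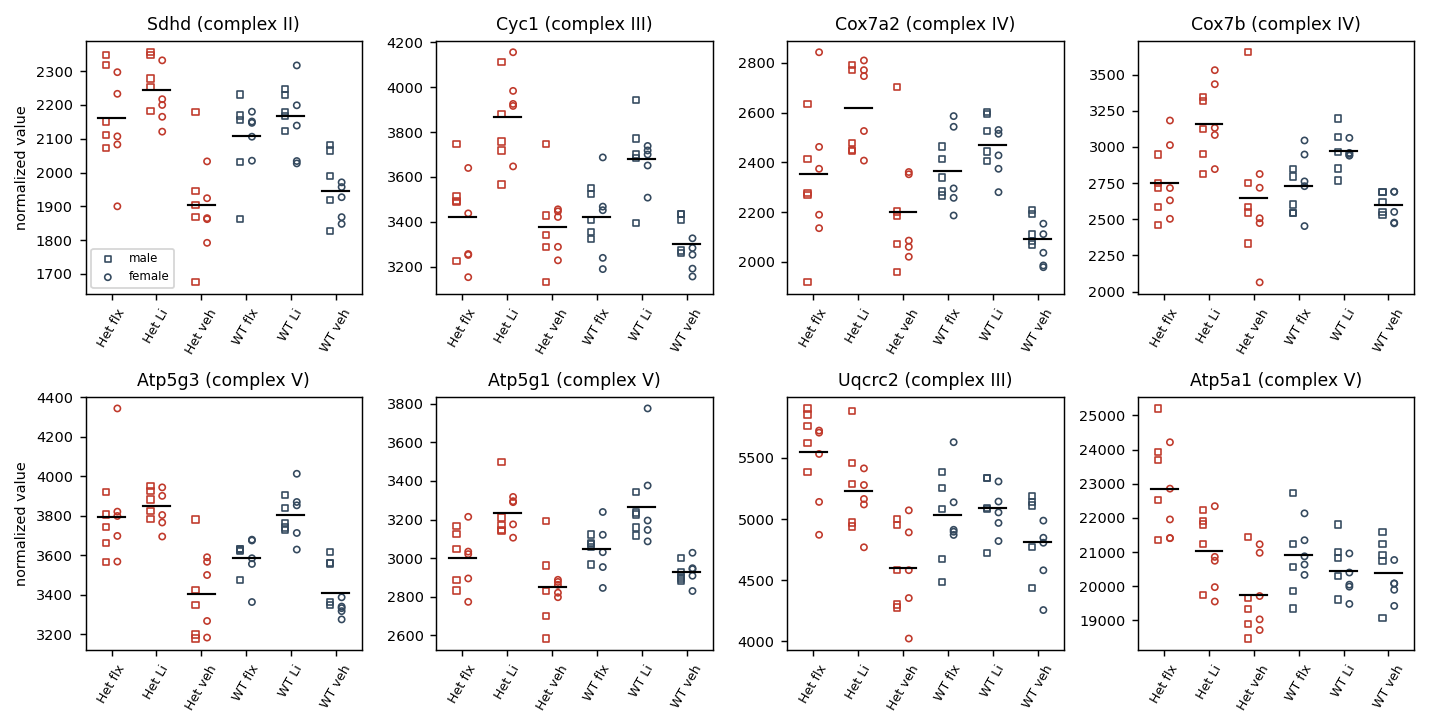
Normalized reads in each of 60 libraries for 8 genes; squares are males, circles females, black lines the mean of 10 libraries, Het in red and WT dark. In Cyc1 the mean of the lithium group lies above those of both other treatments in either genotype, while in Uqcrc2 and Atp5a1 the Het fluoxetine group has the highest mean, at 5550 and 22854.

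Of the 12 called genes with the smallest adjusted p, the remaining 6 were Cox6b1 of complex IV (log2 difference 0.21), Usmg5, a small membrane subunit of the ATP synthase (0.31), Atp5c1, its rotating shaft (0.23), Atp5o, part of its peripheral stalk (0.13), and the genes of the complex III core proteins, Uqcrc1 (0.16) and Uqcrc2 (0.19). Their adjusted p-values in limma ran from 0.00184 to 0.00329, and each was higher in 10 of 10 lithium libraries. All 12 kept their call when any 1 library was left out. The largest difference of the 42 was that of Atp5mpl, a small proteolipid of complex V, at 0.39 ± 0.09 (SE, limma, adjusted p = 0.00581), higher in 8 of 10 libraries.

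Several abundant subunits had smaller differences. Atp5b had 26122, 27236 and 27952 in Het lithium mice (lowest, median, highest), against 22004, 24283 and 28835 in Het vehicle mice, a difference of 0.13 (limma, adjusted p = 0.0103). Sdha stood at 9977, 10127 and 10928 in Het lithium mice, against 9567, 10002 and 10420 in Het vehicle mice, and its difference of 0.04 was not called (limma, adjusted p = 0.291). Cox8a, with 8022 to 9032 in Het lithium mice and 6712 to 9916 in Het vehicle mice, differed by 0.05 (limma, adjusted p = 0.626). Uqcrh, the hinge protein of complex III and its highest gene per kb, ranged from 2565 through 3235 to 3571 in Het lithium mice, against 2066, 2567 and 3733 in Het vehicle mice, and was called at 0.27 (limma, adjusted p = 0.0148). Cox7a1 had a median of 9.88 in Het lithium and 11.9 in Het vehicle mice and differed by −0.05 (limma, adjusted p = 0.922). The other genes not called were Sdhc, Uqcr11, Uqcrq, Uqcrb, Cox6a1, Cox6c, Atp5a1, Atp5d, Atp5j and Atp5s, with differences between −0.05 and 0.17.

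Leaving out 1 library moved the Het lithium count of 28 between 22 and 34, the highest without Het vehicle male replicate 3. Without the 16 libraries rich in olfactory bulb markers, 7 genes were called, Atp5b, Atp5c1, Atp5g1, Atp5g3, Cyc1, Sdhd and Uqcrc2, with a median over the 42 genes of 0.13. Groups then kept 2 to 5 libraries.

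In WT mice lithium raised 19 of the 42 genes (45.2%), against 1.9% of all genes tested, and 0 fell, against 1.07%. They were Sdhd in complex II, 5 genes of complex III, 3 of complex IV and 10 of complex V. The median of the 42 differences was 0.14, against −0.0044 over all genes tested. The Het and WT comparisons use separate lithium and vehicle libraries, and 18 genes were called in both, which is 64.3% of the Het list and 94.7% of the WT list. The share of all genes called in both genotypes was not computed, so this overlap is not read as particular to the 42 genes. Uqcr11, a small subunit of complex III, was the remaining WT call, with a difference of 0.11 in Het mice (limma, adjusted p = 0.101) and 0.15 in WT mice (adjusted p = 0.0447).

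Cox7a2 had 2280, 2480 and 2602 in WT lithium mice (lowest, median, highest), against 1978, 2097 and 2207 in WT vehicle mice, so the 10 and 10 libraries did not overlap. Its difference was 0.24 ± 0.05 (SE, limma, adjusted p = 0.00321). Atp5g3 stood at 3628 to 4012 in WT lithium mice, against 3274 to 3615 in WT vehicle mice, again without overlap, and differed by 0.16 ± 0.03 (SE, limma, adjusted p = 0.00115).

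Atp5g1 (3087 to 3775 in WT lithium and 2830 to 3028 in WT vehicle mice) and Cox7b (2768 to 3196 in WT lithium and 2472 to 2691 in WT vehicle mice) did not overlap either. For Sdhd, WT lithium libraries stood at 2027, 2173 and 2317, against 1828, 1942 and 2081 in WT vehicle libraries, and for Cyc1 at 3396, 3700 and 3942, against 3157, 3278 and 3436. The groups overlapped in both genes. Uqcrh had 2695 to 3442 in WT lithium mice, against 2498 to 2784 in WT vehicle mice, and differed by 0.28 (limma, adjusted p = 0.0234).

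The other WT calls with the smallest adjusted p were Atp5mpl (0.47), Cox6b1 (0.22), Atp5o (0.13), the Rieske iron-sulfur protein gene Uqcrfs1 (0.21), Uqcr10 (0.22), and the ATP synthase dimer genes Atp5k (0.30) and Atp5l (0.28), with limma adjusted p-values from 0.00304 to 0.0101. All 12 with the smallest adjusted p kept their call when any 1 library was left out, and the count of 19 moved between 14 and 21. Atp5b differed by 0.07 in WT mice (limma, adjusted p = 0.284), and Sdha by 0.01 (adjusted p = 0.888), and neither was called. Without the 16 libraries rich in olfactory bulb markers 7 genes were called, Atp5f1, Atp5g1, Atp5g3, Atp5o, Cox6b1, Cox7a2 and Cyc1, and the median was 0.13.

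**Figure D3:**
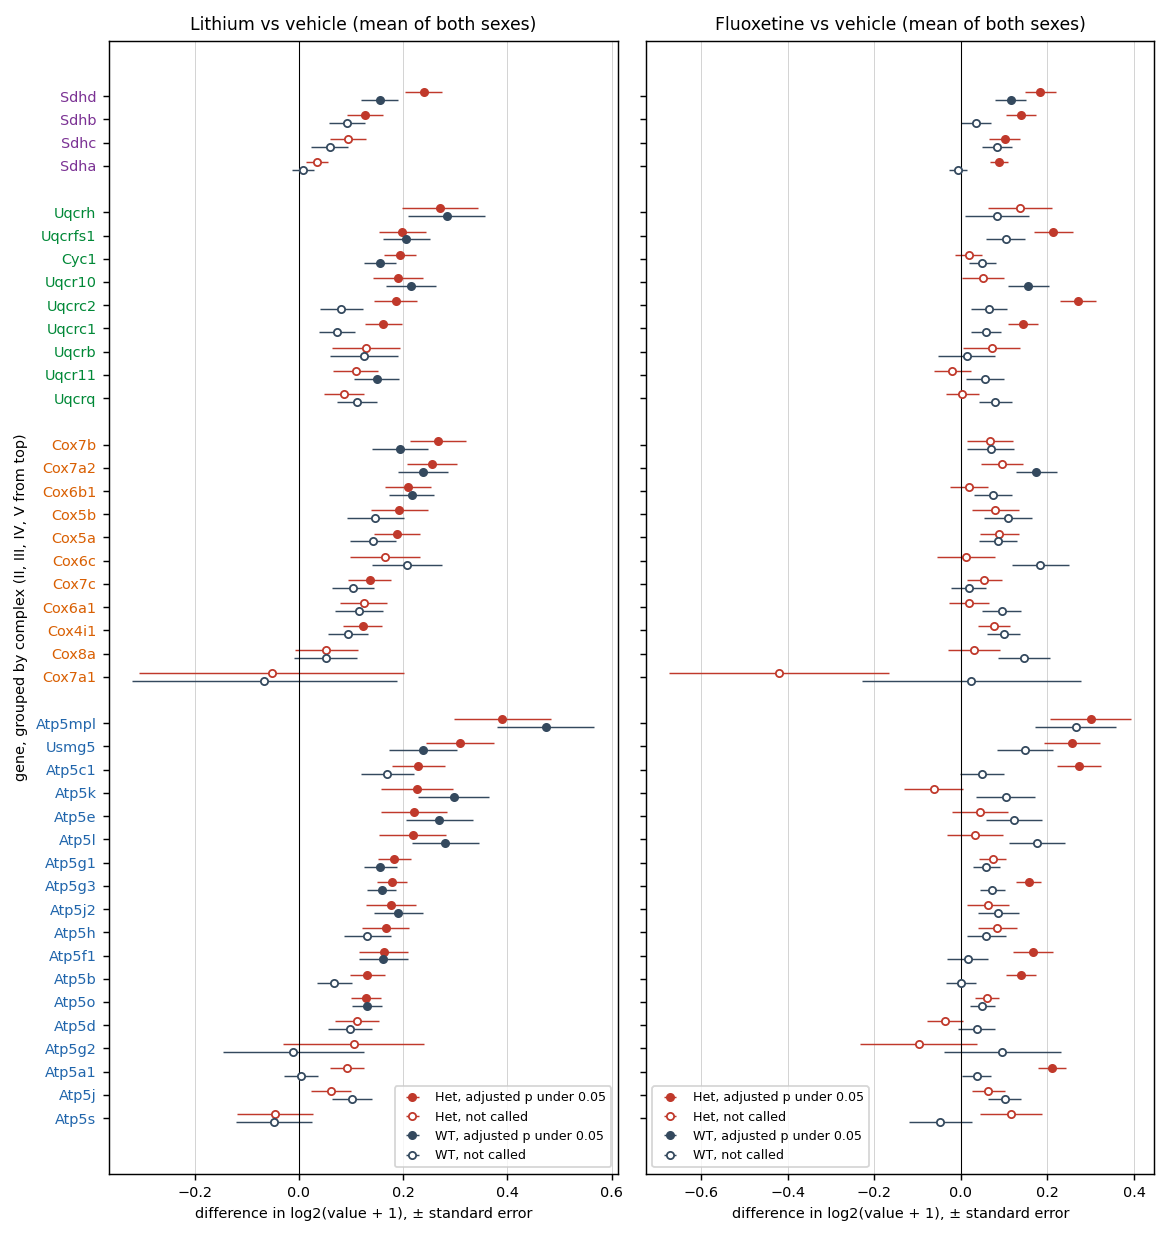
Difference in log2(value + 1) from vehicle with its standard error for all 42 genes, by complex, with lithium on the left and fluoxetine on the right and Het in red and WT dark; filled points were called. The horizontal ranges of the panels differ. Lithium has 28 filled Het and 19 filled WT points, fluoxetine 14 and 3, and the unadjusted p needed for a call differs between comparisons.

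Within a sex the comparisons rest on 5 libraries against 5 and named fewer genes. In Het females lithium raised 11 genes (26.2%), against 0.444% of all genes. They were Sdhd, Cyc1, Uqcrfs1, Cox7b, Cox7a2, Cox6b1, Usmg5, Atp5mpl, Atp5g1, Atp5c1 and Atp5g3, with differences from 0.16 for Atp5g3 to 0.64 for Atp5mpl. The count fell to 0 without Het vehicle female replicate 3, to 3 without Het lithium female replicate 1 or 2, to 6 without Het vehicle female replicate 1 or 4, and to 7 without Het lithium female replicate 3. It rose to 19 without the libraries rich in olfactory bulb markers and fell to 0 in a model of only the 10 libraries concerned.

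Het males had 5 calls with lithium (11.9%), against 1.44% of all genes: Sdhd at 0.26, Uqcrc1 at 0.21, Cyc1 at 0.17, Atp5g3 at 0.20 and Atp5g1 at 0.18. Without Het vehicle male replicate 3 the count was 23, without Het lithium male replicate 2 it was 8, without Het lithium male replicate 4 it was 3, and without Het vehicle male replicate 1 or 4 it was 2. Without the libraries rich in olfactory bulb markers it was 0 and the median fell to 0.02, against 0.15 with all libraries, and only replicates 3 and 5 of the Het vehicle males were left. A model of only the 10 libraries concerned also called 0.

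WT females had 2 calls with lithium (4.76%), against 0.0842% of all genes, Uqcrfs1 at 0.28 (limma, adjusted p = 0.0469) and Atp5g3 at 0.20 (adjusted p = 0.0252). Their count was 0 without WT lithium female replicate 2, 4 or 5 or WT vehicle female replicate 1 or 2, and 1 without WT lithium female replicate 1 or WT vehicle female replicate 4 or 5. In the model of all 12 groups WT males had 0 calls in limma and in edgeR, against 0.0281% of all genes, with 26 of 42 genes at an unadjusted p under 0.05 and a median of 0.13. Such a p was reached by 1619 of all 17807 genes. Models of only the 10 libraries concerned called 9 genes in WT females and 1 in WT males. WT females had 0 calls without the libraries rich in olfactory bulb markers, and 1 with quantile normalization, with the length trend removed or in edgeR with TMM. The test of a difference between the sexes in the drug response called 0 of the 42 genes in limma and edgeR for either drug in either genotype, against 0.0112% of all genes for fluoxetine in Het mice and 0% in the other 3 tests. At an unadjusted p under 0.05 it had 1 gene for fluoxetine in each genotype, 3 for lithium in Het and 0 for lithium in WT mice. Of all 17807 genes it had 2170 for fluoxetine in Het and 477 in WT mice, and 1030 for lithium in Het and 419 in WT mice.

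The score of the 42 genes, the mean of their log2 values centered over all libraries, shows these shifts by library. It ran from 0.019 through a median of 0.095 to 0.157 in Het lithium mice and from −0.197 through −0.082 to 0.199 in Het vehicle mice. In WT mice it ran from −0.024 through 0.063 to 0.127 with lithium and from −0.137 through −0.086 to −0.026 with vehicle. Every WT lithium library scored above every WT vehicle library. In Het mice all lithium libraries scored above all vehicle libraries but male replicate 3.

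**Figure D4:**
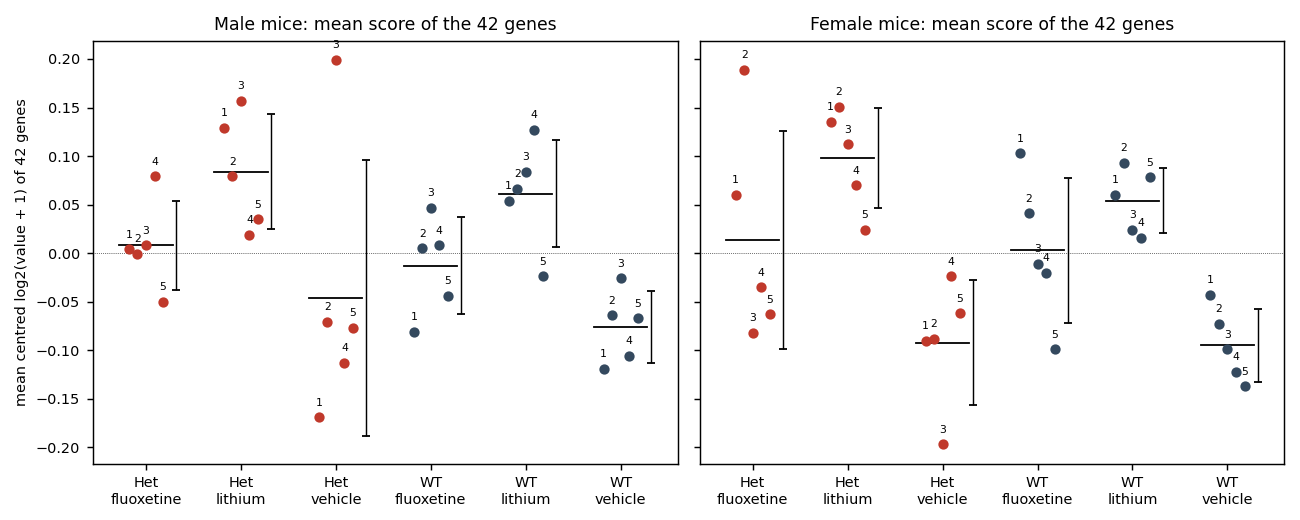
Score of the 42 genes (mean centered log2 value) in each library, males left and females right; numbers are replicates, lines means and bars the SD of 5 libraries. WT lithium scores (−0.024 to 0.127) lie above WT vehicle scores (−0.137 to −0.026), and Het vehicle male replicate 3 stands alone at 0.199.

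In Het mice fluoxetine raised 14 of the 42 genes over both sexes (33.3%), against 16.9% of all genes tested, and 0 fell, against 16% of all genes. All 4 genes of complex II rose, with 3 of 9 of complex III and 7 of 18 of complex V. In complex IV limma called 0 of 11, with 2 at an unadjusted p under 0.05, against 7593 of all 17807 genes. On the recovered reads edgeR also called 14 of the 42 genes. The median of the 42 differences was 0.08, against 0.0054 over all genes.

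Uqcrc2, a core protein of complex III (chromosome 7, 120635176 to 120659524 on GRCm38), had 4872, 5663 and 5905 in Het fluoxetine mice (lowest, median, highest), against 4024, 4583 and 5072 in Het vehicle mice. Its difference was 0.27 ± 0.04 (SE, limma, adjusted p = 1.9e-06), higher in 10 of 10 libraries. Atp5a1, the alpha subunit of the ATP synthase (chromosome 18, 77773729 to 77782869), had 21347, 22689 and 25204 in Het fluoxetine mice, against 18470, 19495 and 21444 in Het vehicle mice, and differed by 0.21 ± 0.03 (SE, limma, adjusted p = 2.69e-06). The groups overlapped at their edges in both genes.

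In complex II, Sdhd stood at 1900, 2131 and 2348 in Het fluoxetine mice, against 1675, 1886 and 2180 in Het vehicle mice, a difference of 0.18 ± 0.04 (SE, limma, adjusted p = 7.98e-05). Sdha, with 10265, 10649 and 10921 in Het fluoxetine mice against 9567, 10002 and 10420 in Het vehicle mice, differed by 0.09 ± 0.02 (SE, limma, adjusted p = 0.00095). The iron-sulfur subunit gene Sdhb differed by 0.14 and the second anchor, Sdhc, by 0.10 (limma, adjusted p = 0.00147 and 0.023).

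The further calls were Atp5g3 (0.16), Atp5c1 (0.27), Uqcrfs1 (0.21), Uqcrc1 (0.14), Atp5b (0.14), Usmg5 (0.26), Atp5f1 (0.17) and Atp5mpl (0.30), with limma adjusted p-values from 2.96e-05 to 0.0107. Of complex IV, Cox7a2 at 0.09 (limma, adjusted p = 0.126), Cox7b at 0.07 (0.353), Cox6b1 at 0.02 (0.769) and Cox8a at 0.03 (0.738) were not called, nor was the scarce Cox7a1 at −0.42 (0.203). Cyc1, with 3154 to 3747 in Het fluoxetine and 3131 to 3746 in Het vehicle mice, differed by 0.02 (limma, adjusted p = 0.691).

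The Het fluoxetine count was 23 without Het vehicle male replicate 3 and otherwise between 13 and 16 when 1 library was left out. Without the 16 libraries rich in olfactory bulb markers it was 5, Atp5a1, Atp5c1, Atp5g3, Sdhd and Uqcrc2, and the median was 0.01. Of the Het vehicle males only replicates 3 and 5 were then left, and replicate 3 is the library that stood apart. The median of Het against WT vehicle mice moved from 0.02 to 0.13 in males and from 0.02 to −0.03 in females in that setting. Sdha and Atp5b lost their calls under quantile normalization (limma, adjusted p = 0.266 and 0.169).

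Each sex of Het mice had 11 calls with fluoxetine (26.2%), against 12% of all genes in males and 7.08% in females. The sexes use separate libraries, but both lists come from the model of all 12 groups. In both sexes 7 genes were called, 63.6% of either list: Atp5a1, Atp5b, Atp5c1, Atp5g3, Sdhd, Uqcrc2 and Uqcrfs1. The share of all genes called in both sexes is not given here, so this overlap is not read as particular to the subunit genes. Males added Sdha, Sdhb, Sdhc and Uqcrc1, and females Atp5f1, Atp5mpl, Uqcrh and Usmg5. A model of only the 10 libraries concerned called 1 gene in males and 1 in females, and quantile normalization left 6 in males and 7 in females. Rescaling to equal totals left 4 in males. Without Het vehicle male replicate 4 the male count was 7. The female count was 4 without Het fluoxetine female replicate 2 or Het vehicle female replicate 3, and 7 without Het vehicle female replicate 4. Without the libraries rich in olfactory bulb markers the counts were 0 in males and 4 in females, and the male median was −0.01, against 0.05 with all libraries. That male comparison kept only replicates 3 and 5 of the Het vehicle males. With libraries rescaled to equal totals the male median was also −0.01.

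WT mice given fluoxetine had 3 genes higher over both sexes (7.14%), against 3.14% of all genes tested, and 0 lower, against 5.06%. Cox7a2 stood at 2186 to 2586 in WT fluoxetine mice, against 1978 to 2207 in WT vehicle mice, and differed by 0.17 (limma, adjusted p = 0.0151). Uqcr10, a small subunit of complex III, differed by 0.16 and Sdhd by 0.11 (limma, adjusted p = 0.0321 and 0.0337). The median of the 42 differences was 0.08, and 40 of 42 were above 0. At an unadjusted p under 0.05 (limma) there were 15 of the 42 genes in WT and 18 in Het mice. Of all 17807 genes there were 4165 in WT and 7593 in Het mice. A call needs a smaller unadjusted p where fewer of all genes are called. The counts of 3 in WT and 14 in Het mice therefore do not measure a difference between the genotypes. Cox7a2 kept its call without any 1 library, and the count was 1 without WT fluoxetine female replicate 2, WT vehicle female replicate 5 or WT vehicle male replicate 1. Uqcr10 lost its call without any of WT fluoxetine females 1 and 2, WT fluoxetine male 3, WT vehicle females 4 and 5 and WT vehicle males 1 and 5 (limma, adjusted p up to 0.0783). Sdhd lost its call without any of WT fluoxetine females 2 and 4, WT fluoxetine males 2, 4 and 5, WT vehicle females 1 and 5 and WT vehicle males 1 and 2 (limma, adjusted p up to 0.0844). Over both sexes the count was 9 in a model of the WT fluoxetine and WT vehicle libraries alone, and 1 with libraries rescaled to equal totals or without the libraries rich in olfactory bulb markers. In the model of all 12 groups neither sex alone had a call in limma or edgeR, against 0.247% of all genes higher in males and 0.607% in females, with 5 genes in males and 7 in females at an unadjusted p under 0.05. Of all 17807 genes tested, 1985 in males and 3020 in females had such a p, shares near those of the 42 genes. A model of the WT female libraries of both treatments alone called 1 gene.

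Both drugs are set against the same vehicle libraries within a genotype, so their lists share that error and are given side by side only. In Het mice Sdhd differed from vehicle by 0.24 with lithium and 0.18 with fluoxetine, and Atp5g3 by 0.18 and 0.16 in that order. Cyc1 differed by 0.19 with lithium and 0.02 with fluoxetine, and Cox6b1 by 0.21 and 0.02. Atp5a1 differed by 0.09 with lithium and 0.21 with fluoxetine.

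The drugs were also compared directly, a comparison added after the data were seen. In Het mice 11 genes were higher with lithium than with fluoxetine (26.2%), against 12.6% of all genes, and Atp5a1 was lower, against 12.4% of all genes. Cyc1 stood at 3566, 3898 and 4155 with lithium, against 3154, 3464 and 3747 with fluoxetine, a difference of 0.18 ± 0.03 (SE, limma, adjusted p = 1.78e-05). Cox6b1 differed by 0.19 (adjusted p = 0.000902), Cox7b by 0.20 (0.00443), Cox7a2 by 0.16 (0.00998), Atp5k by 0.29 (0.00121), Atp5g1 by 0.11 (0.0069) and Atp5d, of the central stalk, by 0.15 (0.0074), all by limma and higher in 10 of 10 lithium libraries. Uqcr11, Uqcr10, Atp5l and Atp5e were also called, at 0.13 to 0.19. The 12 calls in either direction became 19 with libraries rescaled to equal totals, 20 with the length trend removed and 6 without the libraries rich in olfactory bulb markers.

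Atp5a1 had 19554, 21048 and 22344 with lithium, against 21347, 22689 and 25204 with fluoxetine, and differed by −0.12 ± 0.03 (SE, limma, adjusted p = 0.00532), higher in 0 of 10 lithium libraries. It was not called under quantile normalization (limma, adjusted p = 0.143) or rescaling to equal totals (0.0589).

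Several calls of this comparison rested on single libraries. Atp5l, Atp5e, Uqcr10 and Uqcr11 lost theirs without at least 1 of Het fluoxetine female replicates 3 and 5, Het fluoxetine male replicates 3 and 5, Het lithium female replicates 1 to 4 and Het lithium male replicates 1 to 3, with limma adjusted p-values up to 0.102. In WT mice 5 genes were higher with lithium than with fluoxetine (11.9%), against 4.78% of all genes: Cyc1 (0.11), Cox6b1 (0.14), Atp5g1 (0.10), Atp5f1 (0.15) and Atp5g3 (0.09), with limma adjusted p-values from 0.0216 to 0.0482. That count was 8 without WT fluoxetine female replicate 1 and 0 to 3 without any other WT fluoxetine or WT lithium library, except fluoxetine female 2, fluoxetine males 3 and 4, lithium females 1 and 3 and lithium male 5, which left it within 1.5 times. Quantile normalization left 3. Each of the 5 lost its call without at least 1 of these libraries, with limma adjusted p-values up to 0.123. In the opposite direction 0 of the 42 genes were called, against 2.95% of all genes.

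The calls were also counted by transcript length. Of the 13 genes with transcripts over 1000 bases, 10 were called with lithium and 10 with fluoxetine in Het mice. Of the 29 shorter genes, 18 were called with lithium and 4 with fluoxetine. The shares of all genes called by length are not given here. These counts are therefore not read as particular to the subunit genes. Other protein-coding genes with a mean of at least 500 differed by length as well. In Het mice given lithium their median difference was 0.07 up to 500 bases and −0.01 over 4000 bases, and in WT mice 0.07 and −0.03. The 10 subunit genes up to 500 bases had medians of 0.22 in Het and 0.23 in WT mice given lithium. With a trend on length removed from each library, the same 28 genes were called in Het mice with lithium, and 16 of the 19 in WT mice, with medians of 0.14 and 0.10. In Het mice 13 of the 14 genes called with fluoxetine were called again. The part of transcript length in the other differences was not tested.

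**Figure D5:**
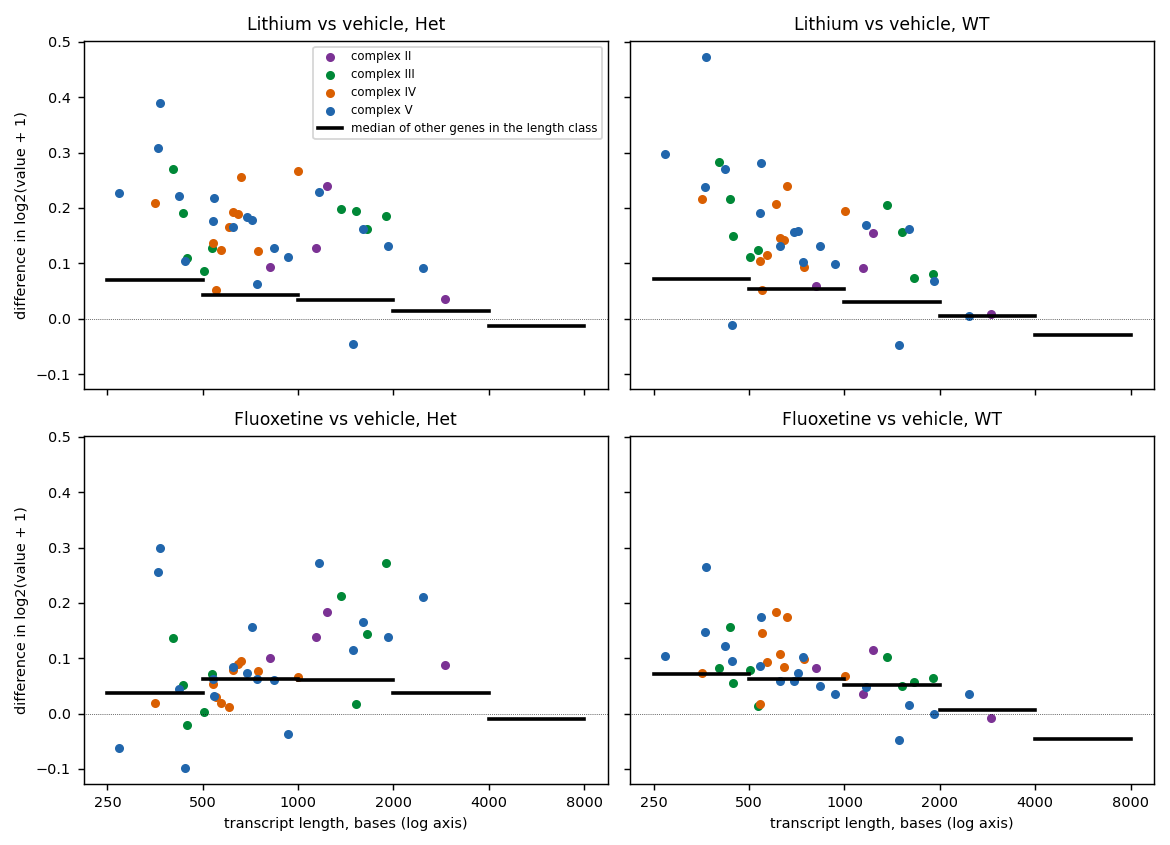
Difference in log2(value + 1) from vehicle against transcript length in bases (log axis) for 41 of the 42 genes (Cox7a1 is left out), colored by complex; black bars are medians of other protein-coding genes with a mean of at least 500 in each length class. Lithium points lie above the bars in most length classes, while with fluoxetine in Het mice the highest points include long transcripts such as Uqcrc2 at 0.27.

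Without a drug no difference between the genotypes was called. Het vehicle mice against WT vehicle mice gave 0 calls of 42 in limma over both sexes, 0 in edgeR and 0 at an unadjusted p under 0.05. Of all 17807 genes 1388 had such a p, and 0.0562% were called in either direction. The differences of the 42 genes ran from −0.10 to 0.16, with a median of 0.01. Under lithium Het against WT mice again gave 0 calls in limma and edgeR, with 3 genes at an unadjusted p under 0.05, a median of 0.04 and 0.0393% of all genes called. Of all 17807 genes 1151 had an unadjusted p under 0.05 there.

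Under fluoxetine Het mice had higher values than WT mice in 7 genes (16.7%), against 3.45% of all genes called higher. Atp5c1, the shaft of the ATP synthase, stood at 5519, 5852 and 7007 in Het fluoxetine mice, against 4750, 5099 and 5748 in WT fluoxetine mice, a difference of 0.22 ± 0.05 (SE, limma, adjusted p = 0.00701). Sdha differed by 0.08 (adjusted p = 0.0174), Sdhb by 0.12 (0.0274), Uqcrc2 by 0.14 (0.0284), Atp5a1 by 0.13 (0.0132), Atp5f1 by 0.17 (0.0184) and Atp5b by 0.12 (0.0197), all by limma. All 7 are among the 13 genes with transcripts over 1000 bases, and 0 of the 29 shorter genes were called. The shares of all genes called above and below that length are not given here. This split is therefore not read as particular to the subunit genes.

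Without the libraries rich in olfactory bulb markers limma called 0 of these genes. When the model held the fluoxetine libraries alone, Atp5c1 was the 1 call left. The count was 4 when WT fluoxetine male replicate 1 was left out, which ended the calls of Atp5b, Sdhb and Uqcrc2. Uqcrc2 also lost its call without any of Het fluoxetine female replicates 2, 3 and 5, Het fluoxetine male replicate 5, WT fluoxetine female replicates 2 and 3 and WT fluoxetine male replicate 3, and Sdhb without Het fluoxetine female replicate 2, Het fluoxetine male replicate 3 or WT fluoxetine female replicate 3. Among males alone Sdha (0.11) and Atp5a1 (0.17) were called (4.76% of the 42 genes, against 0.539% of all genes, limma adjusted p = 0.0426 and 0.049). That count was 6 without Het fluoxetine male replicate 1 or WT fluoxetine male replicate 5, and 0 without Het fluoxetine male replicate 3, 4 or 5 or WT fluoxetine male replicate 1, 3 or 4. Without WT fluoxetine male replicate 2 neither Sdha (limma, adjusted p = 0.0974) nor Atp5a1 (adjusted p = 0.0538) was called. The male count was also 0 with quantile normalization, with libraries rescaled to equal totals, in edgeR with TMM and in a model of only the 10 libraries concerned, and 1 with a pseudocount of 10 or without the libraries rich in olfactory bulb markers. Females had 0 calls in limma and edgeR, with 3 genes at an unadjusted p under 0.05, against 2127 of all 17807 genes.

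The test of whether the drug response itself differed between the genotypes gave few genes. For fluoxetine, Atp5a1 (0.17 ± 0.05, SE, adjusted p = 0.0397) and Uqcrc2 (0.21 ± 0.06, adjusted p = 0.0498) had a larger difference in Het than in WT mice over both sexes (limma; 4.76% of the 42 genes, against 0.724% of all genes called higher). Both this count and that in males fell to 0 with quantile normalization, with libraries rescaled to equal totals, in a model of only the groups concerned, and without the libraries rich in olfactory bulb markers. The fluoxetine difference of Atp5a1 was 0.21 in Het and 0.04 in WT mice, and that of Uqcrc2 0.27 in Het and 0.06 in WT mice. In males limma called Sdha (0.16 ± 0.04, adjusted p = 0.042) and Atp5a1 (0.25 ± 0.07, adjusted p = 0.0437), against 0.337% of all genes. In females limma and edgeR called 0, with 1 gene at an unadjusted p under 0.05, against 2349 of all 17807 genes.

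In edgeR with TMM 1 gene was called over both sexes and 0 in males. These counts also changed when most single libraries were left out. The male count of 2 was 4 without Het vehicle male replicate 3 and 0 or 1 without any other library of the 4 male groups, except Het fluoxetine males 1 and 2 and replicate 5 of the other 3 groups. The count of 2 over both sexes was 5 without Het fluoxetine male 1, Het vehicle female 2 or Het vehicle male 3, 4 without WT fluoxetine female 4, and 0 or 1 without any other library. The libraries that left it unchanged were Het fluoxetine females 1 and 4, Het fluoxetine male 4, Het vehicle female 5, Het vehicle male 5, WT fluoxetine males 2 and 5, WT vehicle female 1 and WT vehicle male 5. For lithium the same test called 0 of the 42 genes in limma and edgeR, and 0% of all genes. At an unadjusted p under 0.05 it had 0 of the 42 and 615 of all 17807 genes. Its differences over both sexes ran from −0.08 to 0.12.

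For the gene lists and markers that follow, the shares of all genes called higher were 5.3% with lithium in Het, 1.9% with lithium in WT, 16.9% with fluoxetine in Het and 3.14% with fluoxetine in WT mice. The shares called lower were 3.84% with lithium in Het and 16% with fluoxetine in Het mice. Of all 17807 genes, those at an unadjusted p under 0.05 numbered 4470 with lithium in Het and 3148 in WT mice. With fluoxetine they numbered 7593 in Het and 4165 in WT mice. Counts near these shares are not read as a result about a list.

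Of the 37 genes listed as nuclear subunits of complex I, the NADH dehydrogenase of the chain, 21 rose with lithium in Het and 11 in WT mice. With fluoxetine 15 rose in Het and 2 in WT mice, with 0 lower. Ndufa11 differed by 0.20, Ndufb6 by 0.22, Ndufv2 by 0.24 and Ndufa4 by 0.34 with lithium in Het mice (limma, adjusted p = 0.000384 to 0.00184). Ndufa4 is counted in this list by its symbol, although its protein has been assigned to complex IV. These lists were written with earlier results of these data known.

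Of the 6 mitochondrially encoded subunits of complexes III to V, limma called 0 with either drug in either genotype, and 0 had an unadjusted p under 0.05. Their median differences were −0.05 with lithium in Het, −0.04 with lithium in WT, −0.01 with fluoxetine in Het and 0.07 with fluoxetine in WT mice. With lithium in Het mice their standard errors ran from 0.08 for mt-Co1 to 0.32 for mt-Co3, whose difference was 0.55 (limma, adjusted p = 0.282). Of the 7 mitochondrially encoded subunits of complex I, mt-Nd6 fell by 0.63 with fluoxetine in Het mice (limma, adjusted p = 0.000392). With 16% of all genes called lower there, this call is not read as a result about these 7 genes. Libraries were selected for polyadenylated RNA, per the labels.

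Among factors that build complex IV, Cox10 (0.21) and Cox15 (0.14), which make its heme, the copper chaperone gene Sco2 (0.21) and Cox19 (0.13) rose with lithium in Het mice, 4 of 21 tested, and 2 rose in WT mice. With fluoxetine 7 rose in Het mice and 1 in WT mice. Atpaf1, an assembly factor of the ATP synthase, rose by 0.25 with lithium in Het mice (limma, adjusted p = 0.00013) and stood at 0.08 in WT mice (adjusted p = 0.269). For complex II 1 of 4 factors rose with lithium in Het mice, Sdhaf4 at 0.27, and 3 with fluoxetine. For complex III limma called 0 of 6 with lithium, with 1 at an unadjusted p under 0.05 in each genotype, and with fluoxetine Uqcc1 (0.23) and Ttc19 (0.15) rose in Het mice.

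Among carriers of the same pathway, the outer membrane channel genes Vdac2 and Vdac3 (0.14 each) and the adenine nucleotide translocator genes Slc25a5 (0.16) and Slc25a4 (0.14) rose with lithium in Het mice, 4 of 8, and 2 of 8 rose in WT mice. With fluoxetine 6 of 8 rose in Het and 1 in WT mice. The tricarboxylic acid cycle, which feeds the chain, had 4 of 16 genes higher with lithium in Het mice, Mdh2 (0.18), Idh3b (0.11), Idh3a (0.13) and Suclg1 (0.11), and 1 in WT mice, with 8 in Het and 1 in WT mice for fluoxetine. Of 12 regulators of mitochondrial gene expression limma called 0 higher with lithium, with 3 in Het and 2 in WT mice at an unadjusted p under 0.05. Gabpa, a subunit of the ETS factor GABP, fell by 0.16 in Het mice (limma, adjusted p = 0.0491).

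Of 5 tested other isoforms and partners of complex IV, 1 rose and 1 fell with lithium in Het mice. Cox6b2, known from testis, fell by 0.82 with lithium (limma, adjusted p = 0.0063) and by 0.79 with fluoxetine (0.00178) in Het mice, against the same vehicle libraries. Cox6a2, the heart and muscle isoform, was higher by 0.35 with lithium in Het mice (limma, adjusted p = 0.0342) and stood at 0.36 in WT mice (0.0592).

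Red blood cell genes rose with lithium, 4 of 5 in Het and 3 of 5 in WT mice, with medians of 0.77 and 0.69, and their summed level was 3525 to 14391 in Het lithium and 3252 to 8797 in Het vehicle mice, and 6627 to 15248 in WT lithium and 4630 to 7350 in WT vehicle mice. Olfactory bulb markers had a median of −0.65 with lithium in Het mice, with 1 of 15 lower, and −0.13 in WT mice, with 0 of 15 called in limma and 0 at an unadjusted p under 0.05. With fluoxetine their median was −0.21 in Het mice, with 0 of 15 called and 0 at an unadjusted p under 0.05, and −0.66 in WT mice, with 0 of 15 called in limma and 8 at an unadjusted p under 0.05.

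In Het mice, markers of endothelium and mural cells fell, 3 of 10 with lithium (median −0.21) and 7 of 10 with fluoxetine (−0.34). Microglia markers fell, 3 of 10 with lithium (−0.20) and 4 of 10 with fluoxetine (−0.19), and leptomeningeal markers fell, 1 of 8 with lithium (−0.31) and 4 of 8 with fluoxetine (−0.34). The summed level of the endothelial and mural markers was 8740 to 12814 in Het fluoxetine, 10164 to 12930 in Het lithium and 10607 to 15489 in Het vehicle mice. That of the microglia markers was 7565 to 14500 in Het fluoxetine, 8538 to 12864 in Het lithium and 11176 to 14855 in Het vehicle mice. The groups overlapped in both sums. The WT drug comparisons of the endothelial, microglia and leptomeningeal lists are not given here. The score of the endothelial and mural markers ran from −0.182 to 0.423 in Het vehicle mice, against −0.076 to 0.274 in WT vehicle mice. Het vehicle female replicate 3 was the highest. Of 12 neuron markers 1 rose with lithium (median −0.0047) and 3 with fluoxetine (0.17) in Het mice, and in WT mice given lithium 0 were called in limma, with 0 at an unadjusted p under 0.05 (median 0.01). Of 16 oligodendrocyte markers 3 rose with fluoxetine in Het mice (median 0.36), where their sum was 40300 to 218810 with fluoxetine and 36782 to 171458 with vehicle, and limma called 0 with lithium, with 1 in Het and 0 in WT mice at an unadjusted p under 0.05. The striatum list had 2 of 12 markers called higher with fluoxetine in Het mice, a share near that of all genes (16.9%), as was that of the oligodendrocyte list. Of 10 astrocyte markers 1 fell with lithium and 3 with fluoxetine. Of 9 choroid plexus markers 0 were called, with 0 at an unadjusted p under 0.05 in all 4 drug comparisons. No list had a marker at 0 in every library of a group. The part of these cells in the rise of the 42 genes was not tested.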

How the data were processed

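Prefrontal cortex mRNA of 60 mice was sequenced with the TruSeq Stranded mRNA kit, per the labels' protocols. The build GRCm38 and the tools R 3.6.0, DESeq2 1.19.11 and Salmon 0.11.2 appear, with no role given, in the submitters' processing notes. The values deposited by the authors are a signal per gene that equals whole reads divided by a factor per library: with factors of 0.818 to 1.0723, 100% of values came out whole at a tolerance of 0.001. Recovered reads per library were 24.05 to 31.65 M (median 28.32 M). No 2 libraries of the same group were duplicates (chi-square per degree of freedom at least 4.12 over 120 pairs). Libraries of different groups were not compared in this way. GENCODE M21 names 18077 of the 18088 genes.

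Values were compared as log2(value + 1), so changes of low genes are understated. The filter kept the 17807 genes that reached 10 in 5 or more libraries. Group means of all 12 groups were fitted in limma 3.58.1 (R 4.3.3, 48 residual degrees of freedom, two-sided), and p-values were adjusted by Benjamini-Hochberg over all genes tested, with calls under 0.05. Fold differences are means over both sexes unless a sex is named. The model was tested on simulated data with planted differences larger than most reported here, so that test does not cover differences of this size. Alternatives were quantile normalization, libraries rescaled to equal totals, a pseudocount of 10, no filter, a fit of only the libraries concerned, a replicate block, edgeR 4.0.16 on recovered reads and each library left out. Removal of the 16 libraries richest in olfactory bulb markers, a length trend (spline with 5 degrees of freedom) removed in each library, and lithium against fluoxetine were added after seeing the data. Same-numbered libraries were not treated as pairs: in 14 pairs of groups, 0 had every correlation over 0.1, and values ran from −0.276 to 0.222. For lithium against vehicle, 4 of 5 libraries in Het males correlated best with their own number (median 0.127). In WT males it was 3 of 5 (median 0.038), and in the other pairs of groups 0 to 2 of 5. A partial pairing is therefore not excluded.

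The 42 genes and all gene lists were chosen with earlier results of these data known. Named genes are up to 12 calls with the smallest adjusted p in a comparison, 6 genes given in full (Sdhd, Cyc1, Cox7a2, Cox7b, Atp5g3 and Atp5g1), the highest of each complex per kb, Cox7a1, and up to 4 of each other list. Others in the text were named after their values were seen. Near-identical transcripts were searched at 95% identity over at least 200 bases.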

Additional observations from a re-analysis of the deposited data

Results flagged for a closer look

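Some libraries lay far from the other 4 of their group in the score of the 42 genes or of 1 complex, by Dixon's ratio of the gap to the range against a critical value of 0.71. In 60 group and score combinations, chance alone gives about 1 in 20 such cases. Het vehicle male replicate 3 scored 0.199 over all 42 genes, against −0.169 to −0.071 in the other Het vehicle males (ratio 0.734). The same library scored 0.179 for complex III, against −0.129 to −0.094 (ratio 0.886), and 0.208 for complex V, against −0.142 to −0.072 (ratio 0.799). Het vehicle female replicate 3 scored −0.257 for complex V, against −0.105 to −0.081 (ratio 0.862). WT vehicle male replicate 1 scored −0.123 for complex V, against −0.064 to −0.044 (ratio 0.739).

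The test of whether the fluoxetine difference differed between Het and WT mice gave 4 calls in limma, and 0 of them with quantile normalization, with libraries rescaled to equal totals, in a model of only the groups concerned, or without the 16 libraries richest in olfactory bulb markers. In males it was 0.1648 for Sdha (SE 0.0421, adjusted p = 0.042) and 0.2532 for Atp5a1 (SE 0.0655, adjusted p = 0.0437). Over both sexes it was 0.1744 for Atp5a1 (SE 0.0463, adjusted p = 0.0397) and 0.2071 for Uqcrc2 (SE 0.0585, adjusted p = 0.0498), on the log2 scale.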

How the results depend on the processing

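No value changed sign among called results. Counts of called genes that moved by over 1.5 times were as follows. Without the 16 libraries richest in olfactory bulb markers, lithium against vehicle gave 7 calls in Het and 7 in WT mice over both sexes (28 and 19 with all libraries), 0 in Het males, 19 in Het females and 0 in WT females. Fluoxetine against vehicle then gave 5 in Het mice, 0 in Het males, 4 in Het females and 1 in WT mice. Het against WT under fluoxetine gave 0 over both sexes and 1 in males, its interaction 0 over both sexes and 0 in males, and lithium against fluoxetine 6 in Het mice. Of the Het vehicle males that setting kept only replicates 3 and 5. A fit of only the libraries concerned gave 1 call for fluoxetine in Het males, 1 in Het females, 1 in WT females and 9 in WT mice over both sexes. For lithium it gave 0 in Het males, 0 in Het females, 1 in WT males and 9 in WT females, and for Het against WT under fluoxetine 0 in males and 1 over both sexes, with 0 for either interaction. Quantile normalization gave 6 for fluoxetine in Het males, 7 in Het females, 1 for lithium in WT females, 0 for Het against WT under fluoxetine in males, 0 for either interaction, and 3 for lithium against fluoxetine in WT mice. Rescaling to equal totals gave 4 for fluoxetine in Het males, 1 in WT mice, 0 for Het against WT under fluoxetine in males, 0 for either interaction, and 19 for lithium against fluoxetine in Het mice. With the length trend removed, lithium in WT females gave 1, the male interaction 1, and lithium against fluoxetine in Het mice 20. In edgeR with TMM, lithium in WT females gave 1, Het against WT under fluoxetine in males 0, the male interaction 0 and that over both sexes 1, which was also 1 with the deposited factors and 1 with no filter. A pseudocount of 10 gave 1 for Het against WT under fluoxetine in males. The cause was not tested.

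When single libraries were left out, counts ranged over both sexes from 22 to 34 for lithium in Het, 14 to 21 in WT, 13 to 23 for fluoxetine in Het and 1 to 4 in WT mice, 4 to 9 for Het against WT under fluoxetine, 0 to 5 for its interaction, and 8 to 18 in Het and 0 to 8 in WT mice for lithium against fluoxetine. By sex they ranged from 2 to 23 (lithium, Het males), 0 to 15 (Het females), 0 to 3 (WT females), 7 to 16 (fluoxetine, Het males), 4 to 12 (Het females), 0 to 6 (Het against WT under fluoxetine, males) and 0 to 4 (its interaction). All other comparisons stayed at 0. Of 109 named results, 47 lost their call in at least 1 of these fits.

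With the replicate number as a block, 28 and 19 genes were called for lithium in Het and WT mice, 14 and 4 for fluoxetine, and 7 for Het against WT under fluoxetine. All 109 named results kept their call with the block, and no pair of groups had every same-number correlation over 0.1. Of the same 109, 64 lost their call without the 16 libraries, 54 in the fit of only the libraries concerned, 25 with quantile normalization, 20 with equal totals, 11 with the length trend removed, 8 in edgeR with TMM, 2 with no filter, 1 with a pseudocount of 10 and 1 in edgeR with the deposited factors. Samples of 5 per group limit what can be detected within a sex.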
